A study of Mus musculus with 7 samples.

Results

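Complex I of the respiratory chain was examined through the 43 genes whose symbol begins with Nduf, among 21487 genes in the table of the whole series. Of the 45 rows with that prefix, 2 (Ndufa4 and Ndufa4l2) were left out, since Ndufa4 encodes a subunit of cytochrome c oxidase. The 43 members are 36 nuclear subunits of complex I and 7 assembly factors, which are the genes whose symbol begins with Ndufaf. RNA came from gastrocnemius, the large calf muscle, of mice with a knockout of Park7 (DJ-1) in skeletal muscle (MPARK7KO, 4 libraries) and of flox mice labelled WT (3 libraries). The muscle of both groups had been immobilized to cause atrophy, and no free limb was sampled, so the contrast is knockout against control in disuse. Neither the Cre driver and the deleted exons nor the age and sex of the mice were stated. The labels leave unsaid whether every library is from its own animal, so p-values measure the spread between these samples, which may in part be technical.

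Complex I, NADH:ubiquinone oxidoreductase, takes electrons from NADH made by the citric acid cycle and fat oxidation, hands them to ubiquinone in the inner mitochondrial membrane, and pumps protons. It is L-shaped: the N module of the arm in the matrix oxidizes NADH, the Q module below it reduces ubiquinone, and the membrane arm, with a proximal and a distal part, moves the protons. A few core subunits carry the chemistry and have relatives in bacteria. Some of the core is encoded in mitochondrial DNA (mtDNA), the rest of the core and the accessory subunits in the nucleus, and assembly factors help to build the complex without staying in it. Muscle fibres that rely on oxidation hold much of it, and fast glycolytic fibres hold less. DJ-1 senses oxidative stress, and inherited loss of it causes a rare early form of Parkinson's disease.

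Promoter letters are shown for the members with a match to the motif of NRF1 (nuclear respiratory factor), a factor known to bind promoters of nuclear respiratory genes, because these members divide into ones that fell in the knockout and ones that were not called. Windows of 300 bases, 250 before and 50 after each RefSeq start on GRCm38.p6, were found for 38 of the 43 members. Its letters were taken as GCGC, any base (N) and TGCGC and read on both strands. They lay in windows of 9 members (23.7%), against 4.6% of all 32851 windows. The 38 members had 40 windows, and each member was counted once, here and for the motifs below. Windows were not matched for base content. For 7 members a match lay in the 120 bases before the start, printed here on the strand of the gene with the match in capitals. The stretches lie at chr2:36049339-36049458 (minus strand) for Ndufa8, chr17:56717642-56717761 (plus) for Ndufa11, chr6:24527691-24527810 (minus) for Ndufa5, chr13:73328483-73328602 (minus) for Ndufs6, chr4:123718187-123718306 (minus) for Ndufs5, chr16:37654369-37654488 (minus) for Ndufb4 and chr4:24897963-24898082 (plus) for Ndufaf4.
Ndufa8: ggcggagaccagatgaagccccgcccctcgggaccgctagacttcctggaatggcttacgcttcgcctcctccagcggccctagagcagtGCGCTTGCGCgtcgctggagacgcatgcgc
Ndufa11: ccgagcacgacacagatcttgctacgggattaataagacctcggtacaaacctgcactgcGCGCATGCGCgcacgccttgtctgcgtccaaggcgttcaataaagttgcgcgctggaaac
Ndufa5: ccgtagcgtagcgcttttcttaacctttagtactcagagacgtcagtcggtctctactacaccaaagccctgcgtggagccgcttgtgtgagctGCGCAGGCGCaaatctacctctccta
Ndufs6: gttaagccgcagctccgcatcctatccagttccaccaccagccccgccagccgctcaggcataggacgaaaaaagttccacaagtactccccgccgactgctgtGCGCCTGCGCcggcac
Ndufs5: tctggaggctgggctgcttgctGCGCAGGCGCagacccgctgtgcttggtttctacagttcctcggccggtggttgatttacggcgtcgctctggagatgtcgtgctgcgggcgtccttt
Ndufb4: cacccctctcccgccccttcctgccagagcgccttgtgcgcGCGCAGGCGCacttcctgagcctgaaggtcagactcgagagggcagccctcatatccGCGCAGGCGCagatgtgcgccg
Ndufaf4: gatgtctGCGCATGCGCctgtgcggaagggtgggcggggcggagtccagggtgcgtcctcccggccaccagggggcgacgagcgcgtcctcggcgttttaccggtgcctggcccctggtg
The stretches are in order of the change measured below: Ndufa8, Ndufa11 and Ndufa5 fell in the knockout and the other 4 were not called. A match therefore stood before members of both kinds. Ndufa5 and Ndufb4 had a further match each, 190 and 191 bases before the start. The other 2 members with a match were Ndufaf5, which fell, and Ndufa6, which was not called, and there it lay after the start.

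Other motifs were searched in the same windows on both strands. The letters AAGATGGC, of the factor YY1, lay in windows of 7 members (18.4%), against 2.75% of all windows, and each of the 7 matches stood 23 to 39 bases after the start on the strand of the gene. They belonged to Ndufa9, Ndufb8, Ndufc1, Ndufs4 and Ndufs7, which fell, and to Ndufa3 and Ndufs6, which were not called. The letters CCGGAAGT (GABPA) lay in 1 member window, that of Ndufs3, or 2.63%, against 3.89% of all windows. The letters AAGGTCA (oestrogen-related receptors) lay in 3 windows (7.89%, against 4.72% of all), and TGACGTCA (CREB) in 3 (7.89%, against 1.79% of all). These matches are descriptions of letters, and binding was not measured.

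Library totals ran from 24458339 to 26389008 counts. Park7, the deleted gene, stood at 35.9, 41.5, 34.7 and 37.2 CPM in the knockouts, against 240, 229 and 266 CPM in the controls, where CPM is counts-per-million on library sizes scaled by the TMM method. No knockout value came near a control value, and the knockout mean was 0.152 times the control mean. All 43 members were tested, and each had at least 108 counts in every library. Muscle fibre markers were high in all libraries (summed 175759 to 259730 CPM in the knockouts and 153568 to 186805 CPM in the controls), as the tissue label says. Of these 10 genes 2 were called lower and 1 higher, beside 8.23% lower and 6.67% higher among all tested genes.

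Most RNAs for complex I subunits were lower in the knockout muscle and none of the 43 members was higher. By edgeR's quasi-likelihood test with Benjamini-Hochberg adjustment over all 13409 tested genes, at an adjusted p under 0.05, 28 members fell, 0 rose and 15 were not called. Of all tested genes 8.23% were called lower and 6.67% higher, against 65.1% of the members called lower. The 36 subunits accounted for 26 of the falls (72.2%) and the 7 assembly factors for 2 (28.6%). The fitted log2 fold change was below 0 for each of the 43 members, from -0.62 to -0.002, with a median of -0.33 (interquartile range -0.43 to -0.24), beside a median of 0.0058 over all tested genes. The sign turned in some other fits for Ndufaf2, Ndufaf4 and Ndufa7, none of which was called. Called members were lower by 15.5% to 35.0% in mean CPM. By the 1.5-fold cut-off that the submitters used, 4 members passed (Ndufs1, Ndufs8, Ndufb5 and Ndufb3), where 5.32% of all genes were called lower and 2.21% higher by that rule. In 33 members every knockout library lay below every control library, a pattern held by 14.8% of all tested genes.

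**Figure D1:**
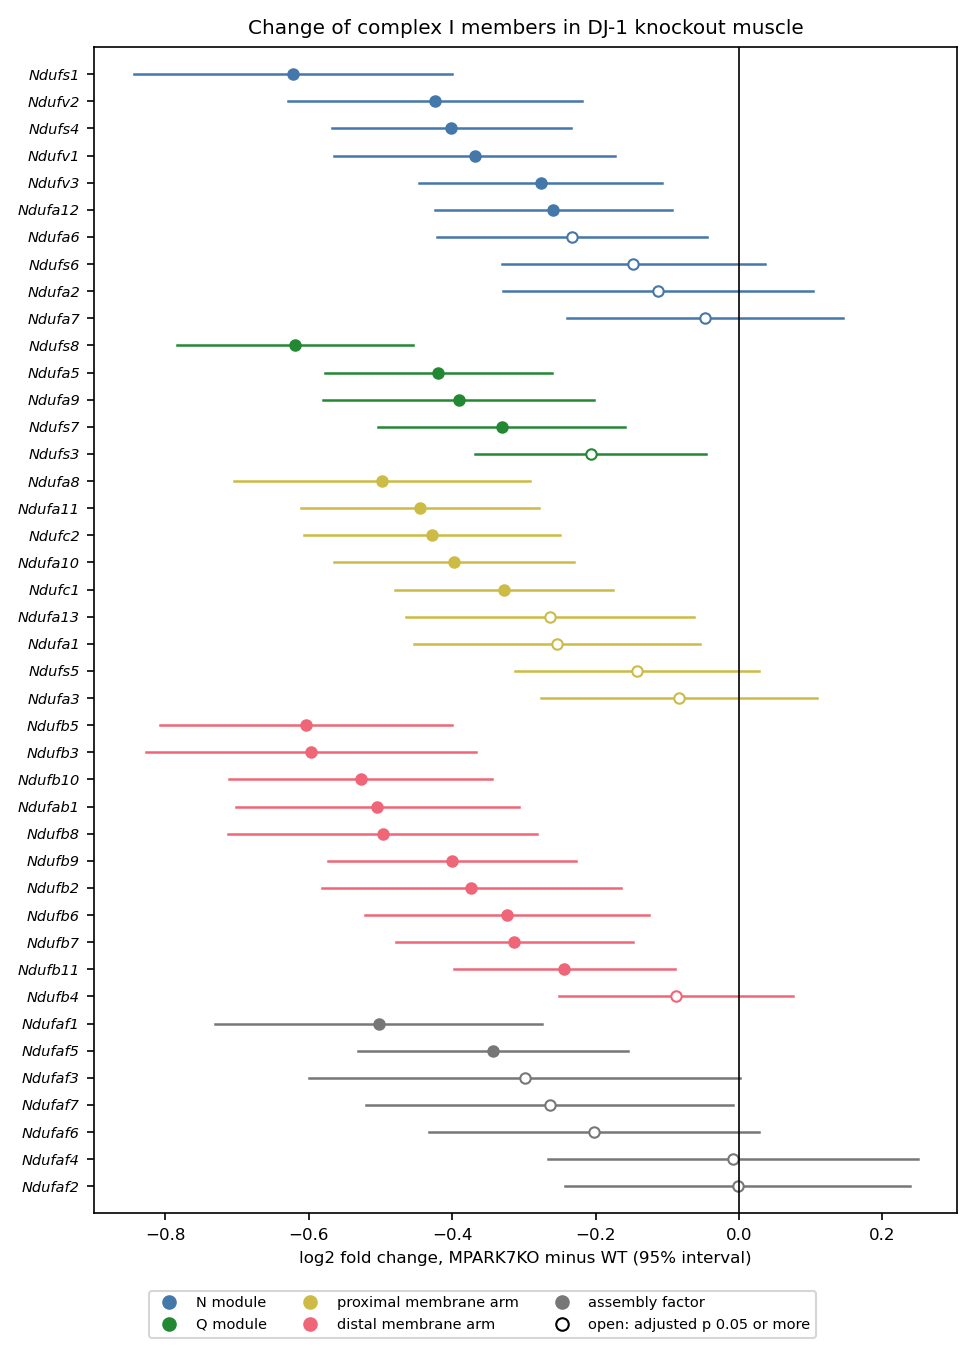
Log2 fold change of 42 members (knockout minus WT, points) with its 95% interval (lines), coloured by module; filled points passed an adjusted p of 0.05 and open points did not. All points lie left of 0, from -0.62 for Ndufs1 to -0.002 for Ndufaf2, and 27 of them are filled.

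The number of falls depended on which library was left out, while the median change moved little. Without WT 1, WT 2, WT 3 or knockout 3 the number called was 15, 15, 16 and 17, and without any other library it was 23 to 27. Calls over all genes dropped as well. In the same order 3.89%, 4.84%, 3.93% and 4.28% of all genes were called lower, against 8.23% with all libraries. Without any other library the share was 5.27% to 8.21%. The median over the members stayed between -0.36 and -0.31 with any 1 library left out. Of the 28 members that fell, 14 kept their call without each library in turn, and these were all subunits: Ndufs1, Ndufs4, Ndufs8, Ndufa5, Ndufa8, Ndufa10, Ndufa11, Ndufc2, Ndufab1, Ndufb3, Ndufb5, Ndufb8, Ndufb9 and Ndufb10.

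Summed over the 43 members, the level was 4226, 4234, 4085 and 4578 CPM in knockouts 1 to 4, against 5557, 5745 and 5374 CPM in WT 1 to 3. The groups did not overlap, with knockout 4 the highest of its group. The means were 4281 ± 210 CPM in the knockouts and 5558 ± 186 CPM in the controls (SD, n = 4 and 3). As a share of all counts the members took 0.429% ± 0.0258 in the knockouts and 0.554% ± 0.0236 in the controls (SD, n = 4 and 3). The rank of the knockouts was shared by many members: knockout 4 was the highest of its group in 31 of the 43 and the lowest in 1, and knockout 3 was the lowest in 18 and the highest in 0. Among the controls, WT 2 was the highest in 29 members. The median difference from the control mean, on the log2 CPM scale, was -0.38, -0.31, -0.40 and -0.26 in knockouts 1 to 4.

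**Figure D2:**
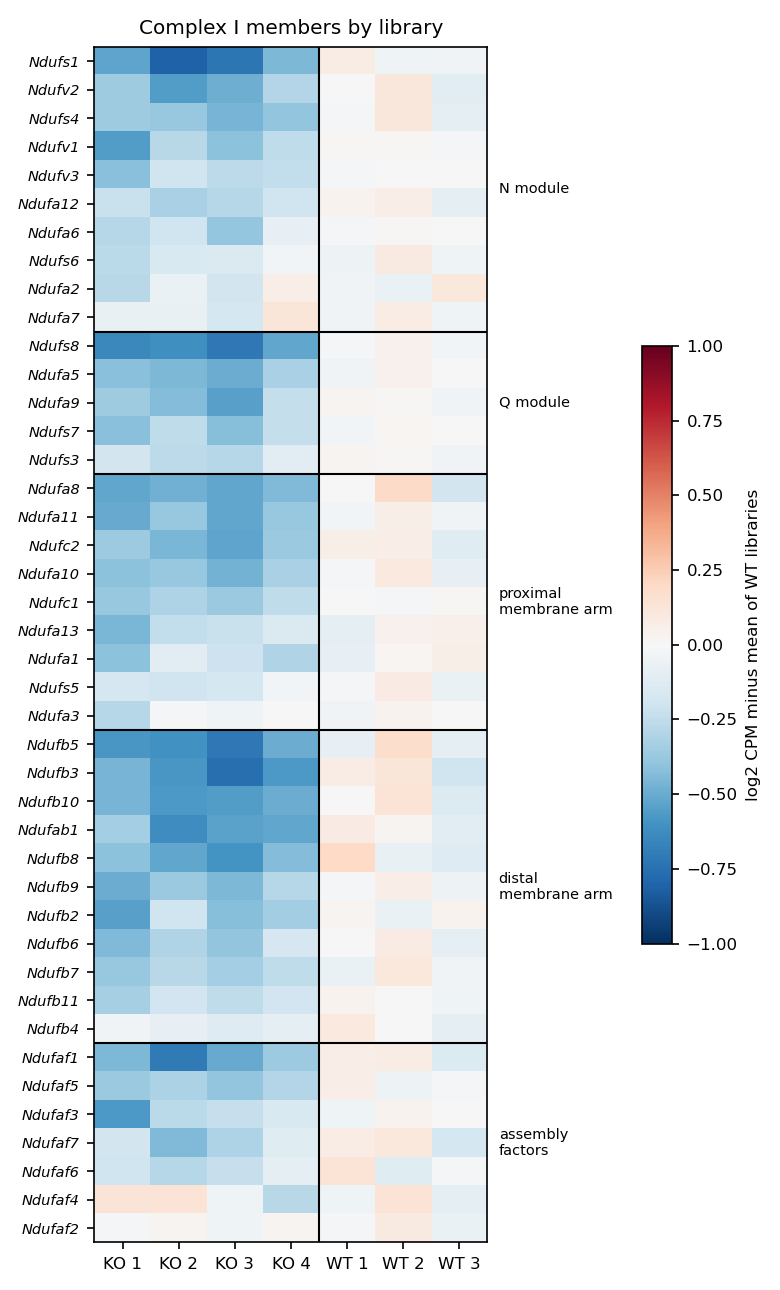
Log2 CPM of 42 members (rows, by module) in each library (columns), minus the mean of the 3 WT libraries; blue is lower and red is higher. Of the 35 subunits drawn, 35 lie below the WT mean in knockouts 1, 2 and 3 and 33 in knockout 4, whereas Ndufaf4 and Ndufaf2 at the bottom are mixed or near white.

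Markers of slow and of oxidative fast fibres were lower in the knockouts beside the members, and the myosin of fast glycolytic fibres was higher. The 10 slow fibre genes summed to 735, 143, 86.0 and 742 CPM in knockouts 1 to 4. In WT 1 to 3 their sums were 1871, 2195 and 2115 CPM. Of the 10 genes, 5 were called lower (50%, against 8.23% of all tested genes). Of these 5, Myh7b and Casq2 kept their call without each library, and Myl2, Tpm3 and Atp2a2 lost it without WT 1, WT 2 or WT 3. Myl2 also lost it without knockout 2 or knockout 4 (adjusted p up to 0.0968). Myh7, the slow myosin, and Myl3, Tnnt1, Tnni1 and Tnnc1 were not called (adjusted p = 0.0667 to 0.165). In each of them all knockouts still lay below all controls, a pattern held by 14.8% of all tested genes. Myh2, the myosin of type IIa fibres, ran from 124 to 1696 CPM in the knockouts and from 4708 to 6810 CPM in the controls. Its call (adjusted p = 0.0485) held without knockout 3 and was lost without each of the other libraries (up to 0.117). Myh4, the myosin of fast glycolytic fibres, read 73365, 96167, 129514 and 100369 CPM in the knockouts, against 40535, 41252 and 57140 CPM in the controls, and was called higher (log2 fold change 1.11, adjusted p = 0.038), a call that held only without knockout 1. Myh1, the myosin of type IIx fibres, and Mb, myoglobin, which stores oxygen in oxidative fibres, were called lower (log2 fold changes -1.45 and -2.17, adjusted p = 0.0292 and 0.0101). The call of Mb held without each library, and that of Myh1 was lost without knockout 1 or any 1 control (up to 0.0788). The expected counts of Myh1, Myh2, Myh4 and Myh7 are not whole, a sign of reads shared with similar sequences. Their levels are therefore less certain. Without knockouts 2 and 3, which held the least slow fibre RNA, 8 members were called lower in a fit of 5 libraries, where 3.4% of all genes were, and the median over the members was -0.32. In bulk muscle, fewer fibres of a type and less RNA per fibre cannot be told apart. Markers of other cells were also lower or overlapped: macrophage genes summed to 38.6 to 61.5 CPM in the knockouts and 55.9 to 91.7 CPM in the controls (3 of 9 tested called lower), and fibroblast genes to 629 to 840 CPM in the knockouts and 721 to 1260 CPM in the controls (4 of 10). Endothelial genes summed to 253 to 289 CPM in the knockouts and 302 to 363 CPM in the controls (2 of 10 called lower). Adipocyte genes summed to 773 to 1353 CPM in the knockouts and 1320 to 1492 CPM in the controls (2 of 7). Car3 alone made up most of that sum, with 682 to 1255 CPM in the knockouts and 1151 to 1340 CPM in the controls. In the order given, 33.3%, 40%, 20% and 28.6% of the tested genes in these lists were called lower, against 8.23% of all tested genes. No gene of these lists was at 0 in all libraries, and the part of other fibre types or cells in the change of the members was not tested.

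**Figure D3:**
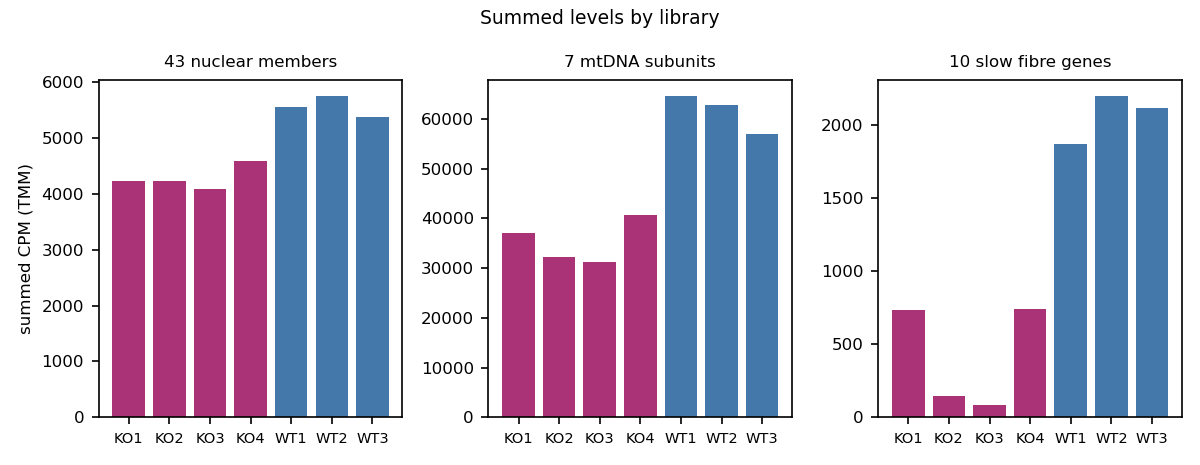
Summed CPM in each library (bars from 0; knockouts left, WT right) of the 43 nuclear members, of the 7 mtDNA subunits and of the 10 slow fibre genes. The members sum to 4085 to 4578 CPM in the knockouts and 5374 to 5745 CPM in the WT libraries; the slow fibre sum differs far more among the knockouts, from 86.0 to 742 CPM.

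Some of the nuclear core subunits carry the flavin and the iron-sulfur clusters. Of the 6 core subunits described here 5 fell, with a median log2 fold change of -0.40. In the N module, Ndufs1 is the largest subunit of the matrix arm and holds several iron-sulfur clusters. It stood at 267, 220, 235 and 282 CPM in the knockouts, against 407, 376 and 377 CPM in the controls. Its fall, by 0.62 in log2 units (adjusted p = 0.00724, SE 0.0982), was the largest among the members, and the groups did not overlap. Ndufv1 binds NADH and the flavin that takes its electrons. Its level was 215, 261, 239 and 265 CPM in the knockouts and 319, 319 and 311 CPM in the controls, a log2 fold change of -0.37 (adjusted p = 0.0256, SE 0.0868). All knockouts lay below all controls, with knockout 1 the lowest. Ndufv2, its iron-sulfur partner, had 168, 146, 153 and 175 CPM in the knockouts, against 215, 233 and 199 CPM in the controls (log2 fold change -0.42, SE 0.0907, adjusted p = 0.0185). Knockout 4 and WT 3 stood closest and still did not overlap. The call of Ndufv1 was lost without WT 1, WT 2, WT 3 or knockout 3 (adjusted p up to 0.0789), and that of Ndufv2 without WT 1, WT 2 or knockout 3 (up to 0.0635).

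In the Q module, Ndufs7 lines the pocket where ubiquinone is reduced, and Ndufs7 and Ndufs8 carry the last iron-sulfur clusters of the chain. Ndufs8 read 43.5, 44.4, 41.4 and 47.4 CPM in the knockouts, against 67.3, 69.8 and 66.5 CPM in the controls. It had the smallest p of all members (log2 fold change -0.62, SE 0.0728, adjusted p = 0.00306), and the gap between the groups was wider than the range within either. Ndufs7 read 108, 121, 107 and 122 CPM in the knockouts and 142, 146 and 144 CPM in the controls, a fall by 0.33 (adjusted p = 0.0237, SE 0.0762) without overlap. Its call ended without WT 1, WT 2, WT 3 or knockout 3 (adjusted p up to 0.0781). Ndufs3, a core subunit that enters the complex early, read 171, 163, 160 and 181 CPM in the knockouts, against 198, 196 and 190 CPM in the controls. The groups did not overlap, but the change did not pass over all genes (log2 fold change -0.21, 95% interval -0.37 to -0.046, adjusted p = 0.0836).

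**Figure D4:**
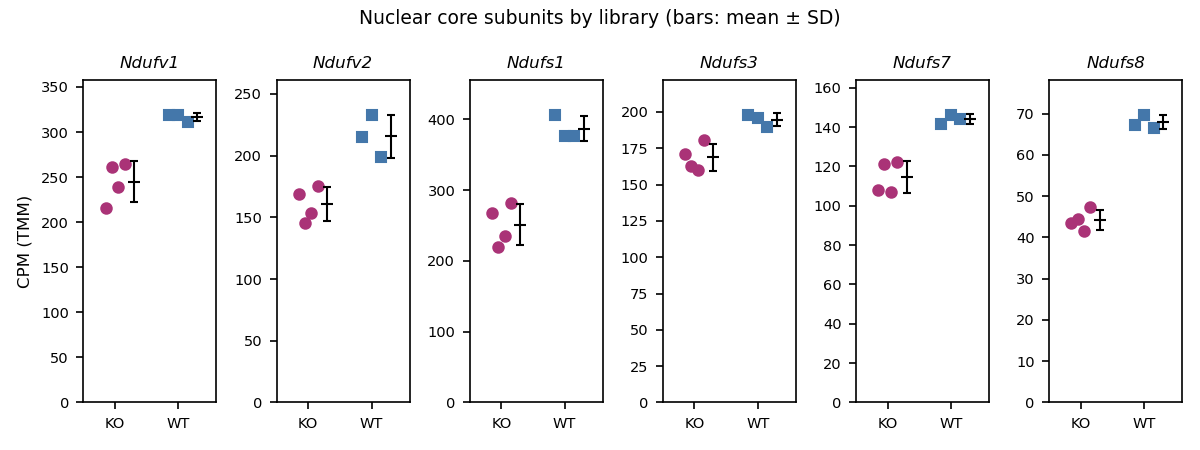
CPM of 6 nuclear core subunits in each library (circles, knockout; squares, WT), each panel from 0 on its own scale, with the mean and SD beside the points. In each panel all 4 knockout points lie below all 3 WT points, with the narrowest relative gap in Ndufs3.

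In the N module as a whole, 6 of 10 subunits fell (median log2 fold change -0.27). The 10 include Ndufa6 and Ndufa7, which sit at its border with the Q module, so the counts of both modules depend on this assignment. Ndufs4, whose loss causes a Leigh-like disease in mice, read 101, 99.6, 93.9 and 98.3 CPM in the knockouts, against 128, 140 and 121 CPM in the controls (log2 fold change -0.40, SE 0.0738, adjusted p = 0.0113). The knockouts were close together and all below the controls. Ndufv3 and Ndufa12 fell by 0.28 and 0.26 in log2 units (adjusted p = 0.04 and 0.045). Their calls were weak: the one of Ndufv3 held only without knockout 2, and that of Ndufa12 was lost without each library in turn (adjusted p 0.0579 to 0.135). Ndufa6, Ndufs6, Ndufa2 and Ndufa7 were not called, with log2 fold changes of -0.23, -0.15, -0.11 and -0.05. Knockout and control values overlapped in the last 3 of them. The N module counted 2 falls without WT 1, WT 2 or knockout 3 and 3 without WT 3.

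Ndufa5, an accessory subunit at the side of the Q module, read 84.5, 82.8, 80.0 and 90.3 CPM in the knockouts, against 110, 116 and 112 CPM in the controls. It fell by 0.42 in log2 units (adjusted p = 0.00842, SE 0.0701), with no overlap. Ndufa9, which sits where the matrix arm meets the membrane and binds a nucleotide cofactor, fell by 0.39 (174 ± 15.6 CPM in the knockouts and 229 ± 5.12 CPM in the controls, SD, n = 4 and 3, adjusted p = 0.0185), and lost its call without each control (up to 0.0642).

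In the proximal membrane arm, next to the Q module, 5 of 9 nuclear subunits fell (median -0.33). Ndufa11, a membrane subunit, read 43.3, 47.1, 42.9 and 47.4 CPM in the knockouts, against 60.3, 64.1 and 60.0 CPM in the controls (log2 fold change -0.44, SE 0.0737, adjusted p = 0.00819). Ndufa8, a subunit on the side of the intermembrane space, read 85.1, 87.3, 85.2 and 89.7 CPM in the knockouts, against 121, 139 and 107 CPM in the controls (log2 fold change -0.50, SE 0.0916, adjusted p = 0.0113). The knockouts lay within a narrow band in both genes and the controls of Ndufa8 spread more widely above it. Ndufc2, Ndufa10 and Ndufc1 fell by 0.43, 0.40 and 0.33 in log2 units (adjusted p = 0.0113, 0.0117 and 0.0162), the last call being lost without WT 1 or WT 3 (up to 0.0633). Ndufa13, also known as GRIM-19, and Ndufa1 were not called (log2 fold change -0.26 and -0.25, adjusted p = 0.0785 and 0.0867), although their groups did not overlap. Ndufs5 and Ndufa3 were not called and their groups overlapped (log2 fold change -0.14 and -0.08).

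The distal membrane arm, the far end of the proton pump, had the highest share of falls among the nuclear modules, 10 of the 11 genes with a row, and a median log2 fold change of -0.40. The difference between modules was not tested. Ndufb5, a membrane subunit, read 152, 150, 138 and 161 CPM in the knockouts, against 215, 257 and 213 CPM in the controls. It fell by 0.60 in log2 units (adjusted p = 0.00652, SE 0.0903), and no value of one group reached the other. Ndufb10, whose cysteines are oxidized in the intermembrane space, read 143, 132, 133 and 139 CPM in the knockouts, against 196, 216 and 179 CPM in the controls (log2 fold change -0.53, SE 0.081, adjusted p = 0.00663). Ndufb3 fell by 0.60 (50.7 ± 4.20 CPM in the knockouts and 76.7 ± 9.02 CPM in the controls, SD, n = 4 and 3, adjusted p = 0.00893). Ndufab1, the mitochondrial acyl carrier protein, which also serves fatty acid and iron-sulfur cluster synthesis, fell by 0.50 (adjusted p = 0.00921). Ndufb8, often used as the complex I marker on protein blots, fell by 0.50 (188 ± 11.0 CPM in the knockouts and 265 ± 33.0 CPM in the controls, SD, n = 4 and 3, adjusted p = 0.0128).

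Ndufb9, Ndufb2, Ndufb6, Ndufb7 and Ndufb11 fell by 0.40, 0.37, 0.32, 0.31 and 0.24 in log2 units (adjusted p = 0.0128 to 0.0439). Ndufb4 was not called (log2 fold change -0.09, adjusted p = 0.437). The calls of Ndufb2, Ndufb6, Ndufb7 and Ndufb11 were lost without any 1 control or without knockout 3, those of Ndufb6 and Ndufb11 also without knockout 1, that of Ndufb6 without knockout 2, and those of Ndufb2 and Ndufb11 without knockout 4 (adjusted p up to 0.138). Without WT 1, WT 2, WT 3 or knockout 3 the arm counted 6 falls.

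Among the 7 assembly factors 2 fell, and the median log2 fold change was -0.26. Without knockout 3, knockout 4 or WT 3 the count was 1, and without WT 1 or WT 2 it was 0. Whether they differ from the subunits was not tested. Ndufaf1 belongs, in human cells, to a complex that helps to build the membrane arm. It read 27.4, 22.9, 26.3 and 29.0 CPM in the knockouts, against 39.0, 39.3 and 33.9 CPM in the controls, and fell by 0.50 in log2 units (adjusted p = 0.0149, SE 0.101). The groups did not overlap, and the call ended without WT 1 or WT 2 (up to 0.0548). Ndufaf5, which in human cells hydroxylates an arginine of the Ndufs7 protein, read 13.4, 13.9, 13.2 and 14.1 CPM in the knockouts, against 18.2, 16.8 and 17.1 CPM in the controls (log2 fold change -0.34, SE 0.0833, adjusted p = 0.0281). These groups did not overlap either. Its call held without knockout 1 or knockout 2 and was lost without each of the other libraries (up to 0.0992).

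The other 5 assembly factors were not called. Ndufaf7, which methylates a complex I subunit in human cells, read 13.6, 11.5, 12.5 and 14.3 CPM in the knockouts, against 16.3, 16.7 and 13.8 CPM in the controls (log2 fold change -0.26, adjusted p = 0.147). Knockout 4 lay above WT 3. Ndufaf3, which with Ndufaf4 helps to assemble the Q module, read 3.92, 4.83, 4.98 and 5.24 CPM in the knockouts and 5.67, 5.98 and 5.83 CPM in the controls (log2 fold change -0.30, adjusted p = 0.159). Its groups did not overlap, with knockout 1 farthest below. Ndufaf6, an early-acting factor, read 11.2, 10.6, 11.0 and 12.1 CPM in the knockouts and 14.2, 11.8 and 12.7 CPM in the controls (log2 fold change -0.20, adjusted p = 0.209), with knockout 4 above WT 2. Ndufaf4 read 50.8, 51.0, 45.2 and 38.3 CPM in the knockouts and 45.2, 51.2 and 43.4 CPM in the controls. Its groups overlapped widely, and knockout 4, the highest knockout in most members, was here the lowest (log2 fold change -0.0088, 95% interval -0.27 to 0.25). Ndufaf2, which in human cells holds the place that Ndufa12 later takes, read 6.17, 6.35, 6.05 and 6.37 CPM in the knockouts and 6.15, 6.63 and 5.95 CPM in the controls. It had the smallest change of all members (log2 fold change -0.002, 95% interval -0.24 to 0.24).

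Per kilobase of merged exons, in control muscle, subunits had a median level of 84.1 CPM per kb, with 8.45 for Ndufb2 as the lowest, and assembly factors a median of 9.69, from 2.1 for Ndufaf2 to 24.9 for Ndufaf1. Merged exons count every annotated exon, used in muscle or not, and span 5628 bases for Ndufb2. Across the 36 subunits the log2 fold change had a Spearman rho of -0.38 with the mean control CPM, -0.02 with the level per kb and -0.26 with exon length. These are descriptions over genes that share their libraries. The control values also enter the log2 fold change, so noise in them alone can push the rho with control CPM below 0. The members lie on 16 chromosomes of GRCm38, with 6 of them on chromosome 17. Ndufs1 lies at 63143596 to 63176833 on chromosome 1, Ndufs8 at 3908863 to 3912774 on chromosome 19 and Ndufb5 at 32736990 to 32751566 on chromosome 3. Exons of another gene overlap those of 18 members in GENCODE M21, 15 of them on the opposite strand alone, such as Ino80dos and Eef1b2 over 498 bases of Ndufs1 and Mrpl47 over 616 bases of Ndufb5, and 3 on the same strand (Ndufb2, Ndufb8 and Ndufb9). The strand of the protocol is not given, so reads of such pairs cannot be told apart here. Ndufa13, Ndufb4 and Ndufs5 have expected counts that are not whole, a sign of reads shared with similar sequences, and their levels are less certain.

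The subunits made from mitochondrial DNA form the core of the membrane arm that pumps protons. Of 7 such mRNAs, 6 fell (85.7%, against 8.23% of all tested genes) and 0 rose, with a median log2 fold change of -0.79. In all 7 the knockouts lay below the controls, a pattern held by 14.8% of all tested genes. Without knockouts 2 and 3 the count was 2 and the median -0.63, in a fit where 3.4% of all genes were called lower. ND1, which forms the ubiquinone channel with the Q module, read 10142, 8242, 8050 and 10527 CPM in the knockouts, against 17036, 16280 and 14647 CPM in the controls (log2 fold change -0.79, adjusted p = 0.0158, lost without WT 1). ND2 read 6192, 5497, 5292 and 7126 CPM in the knockouts, against 11184, 10653 and 9746 CPM in the controls (log2 fold change -0.80, adjusted p = 0.0113). In both, knockout 3 was lowest and knockout 4 highest of its group. ND4 read 11434, 10037, 9286 and 12417 CPM in the knockouts, against 20836, 20060 and 18121 CPM in the controls (log2 fold change -0.87, adjusted p = 0.0124). ND5 read 6538, 5958, 6080 and 7544 CPM in the knockouts, against 10514, 11351 and 10275 CPM in the controls (log2 fold change -0.71, adjusted p = 0.0132). Knockout 4 was the highest of its group in both, and the groups stayed apart. ND4L read 687, 589, 621 and 765 CPM in the knockouts, against 1158, 1100 and 1024 CPM in the controls (log2 fold change -0.72, adjusted p = 0.00645). ND3 read 1386, 1177, 1009 and 1222 CPM in the knockouts, against 2586, 2176 and 1945 CPM in the controls (log2 fold change -0.90, adjusted p = 0.00653), with knockout 1 the highest of its group.

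ND6, the only complex I mRNA on the other strand of mitochondrial DNA, read 748, 691, 857 and 1101 CPM in the knockouts, against 1268, 1199 and 1172 CPM in the controls, and missed the threshold (log2 fold change -0.51, adjusted p = 0.0506). It was called lower with RLE or upper quartile scaling, DESeq2, the replicate block and without knockout 4 (adjusted p = 0.0498, 0.0388, 0.0139, 0.0189 and 0.0147). The adjusted p over all alternatives reached 0.186. As the strand of the protocol is not given, RNA of the facing strand cannot be told apart from ND6 here. Together the 7 mRNAs took 3.54% ± 0.491 of all counts in the knockouts and 6.13% ± 0.500 in the controls (SD, n = 4 and 3). Counts of mtDNA subunits over counts of nuclear subunits gave a ratio of 9.06, 7.83, 7.87 and 9.13 in knockouts 1 to 4, against 11.9, 11.2 and 10.9 in WT 1 to 3. The mtDNA share of complex I RNA was thus lower in each knockout than in each control, as a description with no test.

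Other genes serve complex I from outside the Nduf family. Of 12 further assembly factors 1 fell (8.33%, against 8.23% of all tested genes), with a median log2 fold change of -0.11. That gene was Tmem70, a factor of the inner membrane that also helps to build ATP synthase, which read 51.5, 51.0, 44.6 and 50.2 CPM in the knockouts, against 62.5, 68.5 and 63.4 CPM in the controls (log2 fold change -0.39, adjusted p = 0.015, lost without WT 2 or WT 3). The next genes by p, Aifm1, Sfxn4 and Timmdc1, had log2 fold changes of -0.34, -0.50 and -0.18 and were not called (adjusted p = 0.0552, 0.156 and 0.211). Without WT 2 or WT 3 the list counted 0 falls, and without knockout 4 it counted 2. Ecsit and Acad9, which in human cells work in the same complex as Ndufaf1 and were picked after their values had been seen, had log2 fold changes of 0.04 and -0.10 and were not called.

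Of 16 genes of iron-sulfur cluster synthesis 6 fell (37.5%, against 8.23% of all tested genes) and 0 rose (median log2 fold change -0.22). Glrx5, which passes on new clusters, read 31.5, 28.4, 27.0 and 29.9 CPM in the knockouts, against 40.9, 45.3 and 39.8 CPM in the controls (log2 fold change -0.52, adjusted p = 0.00781, kept without each library). Iscu, the scaffold on which clusters form, and the late-acting factors Iba57 and Bola3 fell by 0.36, 0.60 and 0.25 in log2 units (adjusted p = 0.0288, 0.0375 and 0.0406). The call of Iscu held without knockout 2 or knockout 4, that of Iba57 without knockout 1, and that of Bola3 was lost without each library in turn. The number of falls in this list was 1 without WT 1, WT 2, WT 3 or knockout 3. In those fits 3.89% to 4.84% of all genes were called lower. It was 3 without knockout 1, and 2 without knockout 2 or knockout 4.

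Ubiquinone, the acceptor of complex I, is made in the mitochondrion. Of 13 genes of its synthesis 7 fell (53.8%, against 8.23% of all tested genes) and 0 rose (median log2 fold change -0.37). Adck3, now named Coq8a, an atypical kinase of this pathway, read 454, 384, 307 and 529 CPM in the knockouts, against 1160, 1111 and 1091 CPM in the controls. It fell by 1.42 in log2 units (adjusted p = 0.00298, SE 0.162), more than any complex I member, and its expected counts are not whole. Coq7, a hydroxylase, fell by 0.88 (20.9 ± 5.03 CPM in the knockouts and 38.5 ± 2.36 CPM in the controls, SD, n = 4 and 3, adjusted p = 0.0121). Coq5, a methyltransferase, and Coq9, a lipid-binding partner of Coq7, fell by 0.41 and 0.37 (adjusted p = 0.0162 and 0.0194), calls lost without WT 2 for both and for Coq9 also without WT 1 or knockout 3. The list counted 2 falls without WT 2, 3 without knockout 3, and 4 without WT 1 or WT 3.

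Of 9 other genes for enzymes that hand electrons to ubiquinone, 6 fell (66.7%, against 8.23% of all tested genes) and 1 rose (median log2 fold change -0.48). Etfdh, which takes electrons from fat oxidation, read 103, 99.2, 85.2 and 93.3 CPM in the knockouts, against 163, 178 and 161 CPM in the controls (log2 fold change -0.81, adjusted p = 0.00239). Sdhb and Sdhc, subunits of complex II, fell by 0.85 and 0.55 (adjusted p = 0.00269 and 0.00519). Gpd2, the mitochondrial glycerol-3-phosphate dehydrogenase that brings in electrons from cytosolic NADH, went the other way. It read 257, 231, 271 and 245 CPM in the knockouts, against 172, 145 and 157 CPM in the controls, with no overlap and a log2 fold change of 0.67 (adjusted p = 0.00429, SE 0.0884). This call, and those of Etfdh, Sdhb and Sdhc, held without each library in turn.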

How the data were processed

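The authors deposited 1 table of expected counts per gene symbol. Per the submitters' processing notes, reads were aligned to mm10 with STAR 2.7.10a, quantified with RSEM 1.2.28 and tested with DESeq2 1.3.40; the annotation is not given in the sources used here. Per the labels, reads were 150 bp paired ends. All 7 value columns were used, and 24 symbols turned into dates were tested but not named.

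The deposited expected counts were rounded and tested in R 4.3.3 with edgeR 4.0.16 (filterByExpr, TMM, quasi-likelihood F test with knockout against control as the only term), adjusted by Benjamini-Hochberg over 13409 genes. Ndufb1, Coa1 and Choldh had no row under those names and were not analysed here. Positions and exon lengths came from GENCODE M21. A run of the procedure on simulated counts covered changes of 1.5-fold and more. Most called members changed by less, so that run does not bear on them. Members and lists were chosen with earlier results of these data known. 1 member is in the counts, medians and sums over members but is not reported on its own here. Values per library are given for 6 nuclear core subunits, the 2 members of each module with the smallest p, all assembly factors, the members of largest and smallest change, and the mtDNA subunits; other lists give up to 4 genes by p. Alternatives were other scaling (RLE, upper quartile), filters, DESeq2 1.42.0, the legacy quasi-likelihood, a term for the replicate number, the 1.5-fold rule and libraries left out.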

Additional observations from a re-analysis of the deposited data

Results flagged for a closer look

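Of 66 genes examined for a library far from the rest of the 4 knockouts, 2 were flagged, where chance flags about 1 in 20 groups. In Ndufa3, knockout 1 stood at 54.8 CPM, below the other knockouts (gap 0.858 of the range). In Ndufs5, knockout 4 stood at 80.7 CPM, above the others (gap 0.834 of the range). Neither gene was called.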

How the results depend on the processing

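The members called higher stayed at 0 under every alternative run, and the median log2 fold change of the members stayed between -0.38 (upper quartile scaling) and -0.31 (without knockout 1). The number of members called lower was 28 with RLE, a mean count of at least 10 and DESeq2, and 31 with upper quartile scaling. It was 27 with the legacy quasi-likelihood (Ndufb11 lost) and 22 with no filter (Ndufv3, Ndufa12, Ndufb6, Ndufb7, Ndufb11 and Ndufaf5 lost). Of all genes 8.29%, 8.14% and 8.04% were called lower with RLE, the mean count and DESeq2, and 9.66% with upper quartile scaling. The share was 7.94% with the legacy quasi-likelihood and 4.43% with no filter, against 8.23% in the main fit. Upper quartile scaling made 33.2% of all calls higher, against 44.8% with TMM. Samples with the same replicate number correlated at 0.0945, 0.134 and 0.0854 in their deviations, not all above 0.1, so the numbers were not taken as pairs, although each of these libraries correlated best with its own number. With the replicate block 23 members (Ndufv3, Ndufa12, Ndufb2, Ndufb11 and Ndufaf5 lost), 1 assembly factor, 2 iron-sulfur genes and 2 other assembly factors were called lower. Of all genes 5.19% were called lower in that fit. No filter gave 1 assembly factor and 3 iron-sulfur genes. DESeq2 and upper quartile scaling each gave 2 other assembly factors.

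Without knockouts 2 and 3, chosen after seeing the data, the falls numbered 8 members (8 subunits, 0 assembly factors), with 1 in the N module, 2 in the Q module, 1 in the proximal and 4 in the distal arm; of the lists, 2 mtDNA subunits, 0 other assembly factors, 1 iron-sulfur gene and 2 ubiquinone synthesis genes, 10 over all lists. The medians of the assembly factors and of the iron-sulfur genes were then -0.16 and -0.094. This fit has fewer samples, and 3.4% of all genes were called lower in it. By the 1.5-fold rule the falls numbered 4 members (4 subunits, 0 assembly factors), 1 in the N module, 1 in the Q module, 0 in the proximal and 2 in the distal arm. In the lists they numbered 0 other assembly factors, 1 iron-sulfur gene, 2 ubiquinone synthesis genes and 2 ubiquinone reductases, 11 over all lists. Of all tested genes 5.32% were called lower by that rule.

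With 1 library left out, in fits with fewer samples, the falls ran from 15 to 27 members, 15 to 25 subunits, 0 to 2 assembly factors, 2 to 5 in the N module, 2 to 5 in the Q module, 4 to 6 in the proximal and 6 to 9 in the distal arm, 5 to 7 mtDNA subunits, 0 to 2 other assembly factors, 1 to 3 iron-sulfur genes, 2 to 7 ubiquinone synthesis genes, 5 to 6 ubiquinone reductases and 14 to 22 over all lists. Of all genes, 3.89% to 8.21% were called lower in these fits. Changes of sign touched uncalled genes alone. Ndufa7 was at 0.028 without knockouts 2 and 3. Ndufaf2 was at 0.0037 with no filter, 0.0057 with DESeq2, 0.0075 without knockouts 2 and 3, 0.012 without knockout 3 and 0.045 without WT 2, with a range of -0.035 to 0.045 over libraries left out. Ndufaf4 was at 0.073 with the replicate block, 0.0026 without knockout 3, 0.072 without knockout 4 and 0.066 without WT 2, with a range of -0.060 to 0.072. The cause of these moves was not tested.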
